A study of Mus musculus with 4 samples.

Results

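The genes examined here are those of the proteasome, chosen by symbol: every protein-coding gene of the GENCODE M1 annotation (mm9) whose symbol starts with Psma, Psmb, Psmc, Psmd, Psme, Psmf or Psmg followed by a digit. This gave 50 genes of 22238 protein-coding gene symbols. Of the 50 symbols, 48 are parts, activators, inhibitors or assembly factors of the proteasome. The other two are Psmc3ip, which encodes a meiotic recombination factor, and Psme2b-ps, a symbol marked as a pseudogene that the annotation lists as protein-coding, and neither had a peak. SHP (NR0B2) belongs to the nuclear receptors but has no domain that binds DNA, so its ChIP-seq signal marks the places where other proteins hold it on chromatin. Livers came from wild-type male C57BL/6 mice aged 8 to 12 weeks that were fasted for 12 h, given vehicle or 1 mg/kg FGF19 through the tail vein, and killed 2 h later. Immunoprecipitated and input samples from 3 mice were pooled into 1 SHP ChIP library and 1 input library per group. There is thus no replicate error, and no difference between the groups was tested. The vehicle list holds 1508 peaks from 15473647 filtered ChIP tags and the FGF19 list 3155 peaks from 13444078. A peak is listed only where it passed the q-value cutoff of 0.05 in its own group, and signal below that cutoff was not analysed here.

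The proteasome is the large protease that degrades proteins tagged with ubiquitin. Its barrel-shaped core is built of outer alpha rings, which gate the entrance, and inner beta rings, which hold the catalytic sites. A regulatory cap, made of a base with ATPases and a lid with a deubiquitinating enzyme, recognises, unfolds and feeds in the substrate. Dedicated chaperones assemble both. In cells exposed to interferon, inducible beta subunits replace the catalytic ones, and alternative activators can replace the cap. Liver is rich in proteasomes, which take part in the turnover of metabolic enzymes there.

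Sequences are shown for the regions the results turn on, namely 5 of the 6 regions near proteasome genes that were peaks in both lists, the strongest peak with vehicle at Psmb5, and the strongest FGF19 promoter peaks of the alpha ring (Psma3) and the beta ring (Psmb2). Strongest here means highest by fold enrichment. Each sequence is the summit with 100 bases on either side in mm9, written 5′ to 3′ on the strand of the proteasome gene. Capitals mark exact matches, on either strand, to any of 6 consensus sequences: the YY1/SRE core AANATGGC, SP1 CCCCGCCCC, NF-Y ATTGGC, NRF1 GCGCATGCG, ETS CCGGAAGT and the antioxidant response core TGACNNNGC. The YY1/SRE label is used because the study of these data gives a motif with this core as bound by YY1. The study adds that the motif was also identified for SREBP-2, an activator of cholesterol synthesis. No separate sterol regulatory element (SRE) was searched for. Each region found in both lists is centred on the peak with the higher fold enrichment, and no matches overlapped each other in these sequences.
Psmb5, vehicle summit, chr14:55236921-55237121, minus strand: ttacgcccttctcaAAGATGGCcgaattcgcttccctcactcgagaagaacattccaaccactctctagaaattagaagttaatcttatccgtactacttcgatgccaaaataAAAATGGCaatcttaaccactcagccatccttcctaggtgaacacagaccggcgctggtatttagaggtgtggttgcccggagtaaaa
Psmd12, vehicle summit, chr11:107340707-107340907, plus strand: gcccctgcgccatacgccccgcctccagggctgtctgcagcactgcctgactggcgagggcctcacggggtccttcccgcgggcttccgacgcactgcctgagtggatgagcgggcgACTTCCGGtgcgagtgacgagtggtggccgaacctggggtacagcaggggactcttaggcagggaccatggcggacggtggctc
Psmd1, vehicle summit, chr1:87960955-87961155, plus strand: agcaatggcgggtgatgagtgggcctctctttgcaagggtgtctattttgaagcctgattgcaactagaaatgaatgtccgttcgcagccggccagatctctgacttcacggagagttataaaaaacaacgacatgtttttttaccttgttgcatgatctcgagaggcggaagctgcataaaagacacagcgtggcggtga
Psma7, vehicle summit, chr2:179776822-179777022, minus strand: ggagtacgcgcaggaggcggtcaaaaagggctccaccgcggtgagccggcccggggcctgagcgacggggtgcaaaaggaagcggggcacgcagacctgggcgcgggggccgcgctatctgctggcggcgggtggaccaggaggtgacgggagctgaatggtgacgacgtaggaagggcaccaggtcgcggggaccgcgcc
Psma3, FGF19 summit, chr12:72075700-72075900, plus strand: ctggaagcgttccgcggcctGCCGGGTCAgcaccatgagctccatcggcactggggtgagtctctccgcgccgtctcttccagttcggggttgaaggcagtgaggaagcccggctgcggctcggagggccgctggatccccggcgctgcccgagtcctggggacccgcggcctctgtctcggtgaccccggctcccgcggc
Psmb2, FGF19 summit, chr4:126354826-126355026, plus strand: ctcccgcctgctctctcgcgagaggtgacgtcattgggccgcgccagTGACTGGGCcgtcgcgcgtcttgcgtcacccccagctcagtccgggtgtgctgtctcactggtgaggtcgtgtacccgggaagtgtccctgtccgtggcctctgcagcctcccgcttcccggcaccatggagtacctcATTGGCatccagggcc
Psmd11 downstream region, vehicle summit, chr11:80290191-80290391, plus strand: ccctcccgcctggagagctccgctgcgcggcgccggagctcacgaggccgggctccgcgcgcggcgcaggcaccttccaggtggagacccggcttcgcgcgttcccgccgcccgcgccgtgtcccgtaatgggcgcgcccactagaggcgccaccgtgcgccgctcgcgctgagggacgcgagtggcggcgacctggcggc
Psmb10 upstream region, FGF19 summit, chr8:108467097-108467297, minus strand: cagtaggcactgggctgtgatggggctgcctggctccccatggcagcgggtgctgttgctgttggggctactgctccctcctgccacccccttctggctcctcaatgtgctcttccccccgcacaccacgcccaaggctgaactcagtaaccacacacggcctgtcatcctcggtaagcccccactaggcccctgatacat
The Psmb5 window, the strongest with vehicle by fold enrichment, holds a pair of matches to the YY1/SRE core and no other match. The Psmd12 window, the only one with a pileup above 50 in both lists, holds 1 ETS match. The promoter windows of Psma3 and Psmb2 each hold 1 antioxidant response core, and Psmb2 also holds 1 NF-Y sequence. The printed windows at Psmd1, Psma7, downstream of Psmd11 and upstream of Psmb10 hold none of the 6 sequences. Around the other summit of these regions, with FGF19, Psma7 has 1 YY1/SRE core and the Psmd11 downstream region 3 SP1 sequences.

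An SHP peak lay within 5 kb of 12 proteasome genes with vehicle and of 13 with FGF19. With vehicle this is 24.0% of the 50 genes (95% Wilson interval 14.3 to 37.4, counting error only), against 7.95% of all protein-coding genes. With FGF19 it is 26.0% (15.9 to 39.6), against 16.4% of all protein-coding genes. The FGF19 list covered more of all genes, but the number of proteasome genes hardly differed between the full lists. This depended on the cutoff. At −log10 q of at least 3, the number was 9 with vehicle (18%, against 6.46% of all genes). With FGF19 it was 13 (26.0%, against 14.2%). At a fold enrichment of at least 4 the number was 8 in each list (16.0%). The shares of all genes were then 4.29% with vehicle and 8.64% with FGF19. With the FGF19 list shortened to the length of the vehicle list, the number was 12 with vehicle (24.0%, against 7.95%). With FGF19 it was then 9 (18%, against 8.09%). In the full lists, the share of proteasome genes was 3.02 times that of all protein-coding genes with vehicle and 1.59 times with FGF19. The interval with FGF19 includes the share of all protein-coding genes, and the interval with vehicle does not. Both lists covered 6 of the genes (12.0%, against 4.33% of all genes). Another 6 had a peak with vehicle only (12.0%, against 3.63%) and 7 with FGF19 only (14.0%, against 12.1%). The share with FGF19 only is near that of all genes. At −log10 q of at least 3, the genes with vehicle only were 3 (6.0%, against 3.09% of all genes), and at a fold enrichment of at least 4, those with FGF19 only were 4 (8.0%, against 6.87%). Altogether 19 of the 50 genes (38.0%, against 20.0% of all genes) had a peak in at least 1 list and 31 had none. Peaks near proteasome genes numbered 13 with vehicle, 0.862% of that list (interval 0.504 to 1.47). They numbered 14 with FGF19, 0.444% of that longer list (0.265 to 0.743), and these intervals overlap. All protein-coding genes include many that are silent in liver, and expression was not analysed here, so the part of promoter activity in these ratios was not tested.

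The same held at the start of the gene. A summit lay within 1 kb of an annotated transcription start site (TSS) of the gene at 9 proteasome genes with vehicle, which is 18% (9.77 to 30.8) against 5.54% of all protein-coding genes, a ratio of 3.25. With FGF19 it did so at 10 genes, 20.0% (11.2 to 33.0) against 12.6%, a ratio of 1.59. Here too the FGF19 interval includes the share of all genes. The genes in both lists by this rule were Psma7, Psmd1, Psmd12 and Psmg2 (8.0%, against 2.6% of all genes). With vehicle only, 5 genes had such a peak (10.0%, against 2.94%), namely Psma5, Psmb5, Psmb10, Psmc6 and Psmd7. With FGF19 only, 6 had one (12.0%, against 9.95%), namely Psma3, Psmb2, Psmd5, Psmd11, Psmg1 and Psmg4. With only the top 1508 FGF19 peaks by q-value, as many as in the vehicle list, 9 proteasome genes stayed within 5 kb of a peak (18%, against 8.09% of all genes), and 12 did so with vehicle.

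**Figure D1:**
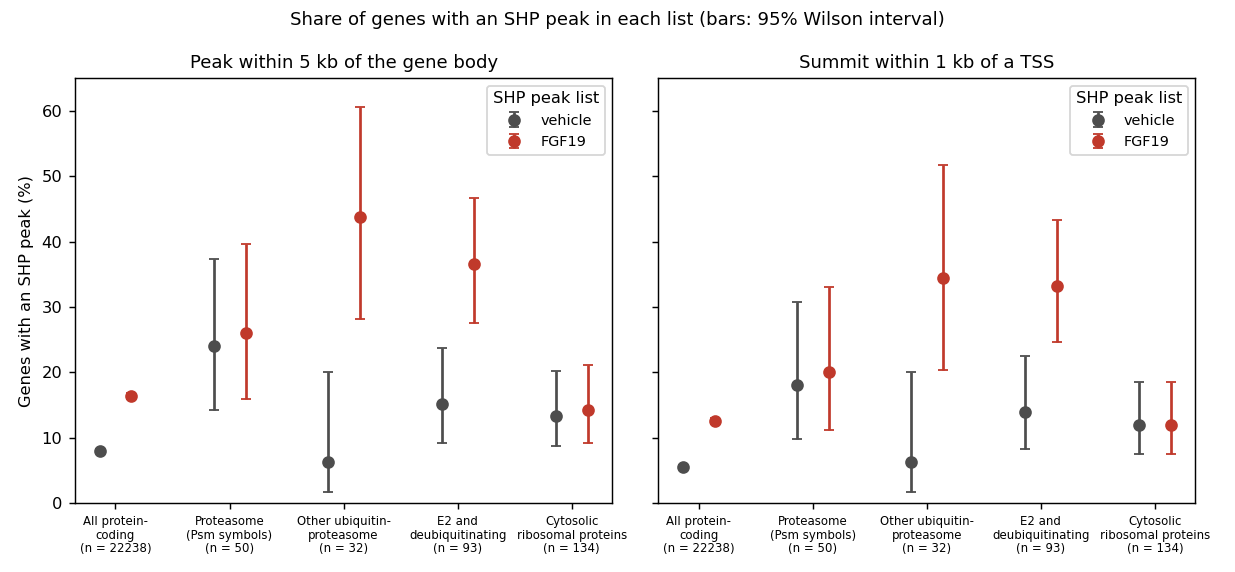
Percentage of genes with an SHP peak in the vehicle list (grey) and the FGF19 list (red), within 5 kb of the gene body (left) or with the summit within 1 kb of a TSS (right), for all protein-coding genes and 4 gene groups. Bars are 95% Wilson intervals. The proteasome genes stand at 24.0% and 26.0% on the left, while all protein-coding genes stand at 7.95% and 16.4%.

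By role, peaks at a gene's own TSS were found in the core, the cap and the assembly factors. They were found at 3 of 8 alpha ring genes, 2 of 7 constitutive beta ring genes, 1 of 4 inducible or thymic beta genes, 1 of 6 base ATPase genes, 1 of 3 other base genes, 3 of 8 lid genes and 4 of 7 assembly factor genes, which makes 15 of 50 genes (30.0%) against 15.5% of all protein-coding genes. None of the 4 activator genes (Psme1, Psme2, Psme3 and Psme4) nor the inhibitor gene Psmf1 had a peak in either list, within 5 kb or at the TSS. Of the 7 assembly factor genes, 1 had a TSS peak with vehicle (Psmg2) and 4 with FGF19 (Psmg2 included). The genes of all other roles had 8 with vehicle and 6 with FGF19. Of all protein-coding genes, 5.54% had such a peak with vehicle and 12.6% with FGF19. At the share of all genes, groups of this size hold few genes with a peak or none, so counts of 0 or 1 are no result about a role. These are counts from 1 library per group, and no difference between roles was tested.

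**Figure D2:**
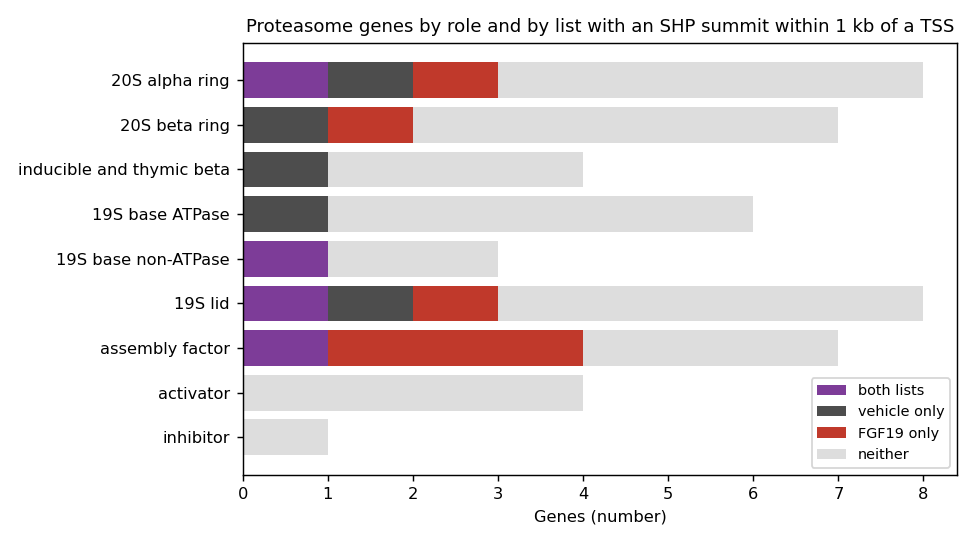
Number of proteasome genes of each role with an SHP summit within 1 kb of a TSS in both lists, in the vehicle list only, in the FGF19 list only, or in neither. The assembly factors have 4 of 7 genes with a peak, and the activators and the inhibitor have none.

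In the alpha ring, which gates access to the core, 3 genes had peaks. The Psma7 gene was covered in both lists, on chr2:179776798-179777118 with vehicle and chr2:179776567-179776869 with FGF19. Its pileup, the number of extended ChIP tags over the summit, was 22 with vehicle and 18 with FGF19. Its fold enrichment, the pileup over the local input background, reached 5.76 in the vehicle list and 3.49 in the FGF19 list. The Psma7 peaks share only 72 bp and their summits are 170 bp apart, both downstream of the TSS in a noncoding exon. The TSS of Ss18l1 also lies within 1 kb of both summits. Psma5 had a peak with vehicle only, on chr3:108059799-108060075, with a pileup of 21 and a fold enrichment of 3.26. That enrichment was above only 15.6% of all vehicle peaks. Psma3 had a peak with FGF19 only, on chr12:72075632-72075982, with a pileup of 30 and a fold enrichment of 3.55. This enrichment was above only 28.1% of all FGF19 peaks. The other 5 alpha ring genes, Psma1, Psma2, Psma4, Psma6 and Psma8, had no peak in either list.

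In the beta ring, which carries the proteolytic sites, lay the proteasome peak with the highest fold enrichment with vehicle, at Psmb5. Psmb5 is the chymotrypsin-like catalytic subunit that proteasome inhibitor drugs target. The peak covers chr14:55236808-55237112, with its summit 170 bp upstream of the TSS. Its pileup was 37 (exact Poisson interval 26.1 to 51.0) and its fold enrichment 8.53 over a local background of 3.46. That enrichment was above 95.4% of all vehicle peaks. By pileup, the vehicle peaks at Psmd12 (59), Psmd1 (42) and Psmg2 (38) stood higher. No FGF19 peak was listed within 5 kb of Psmb5. Psmb2, a noncatalytic beta subunit, showed the opposite pattern, with an FGF19 peak on chr4:126354650-126355176 of pileup 32 and fold enrichment 3.47 and no vehicle peak. The Psmb2 enrichment was above only 24.8% of all FGF19 peaks. Psmb10, the interferon-inducible trypsin-like subunit, had a vehicle peak in its 5′ untranslated region, on chr8:108461869-108462111, with a pileup of 20 and a fold enrichment of 3.11. That is a weak peak, above only 11.0% of the vehicle list. The caspase-like subunit gene Psmb6 and the noncatalytic subunit gene Psmb3 had peaks only at a distance, described with the neighbouring genes. Psmb1, Psmb4 and Psmb7, and the inducible or thymic genes Psmb8, Psmb9 and Psmb11, had none within 5 kb.

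In the base of the cap, the strongest signal was at Psmd1, a large scaffold subunit, and was present in both lists. The Psmd1 peak covers chr1:87960877-87961347 with vehicle and chr1:87960923-87961198 with FGF19. Its pileup was 42 with vehicle and 25 with FGF19, and its fold enrichment was 5.95 and 4.96. Psmc6, one of the ATPases that unfold the substrate, had a vehicle peak on chr14:45949521-45949900 with a pileup of 27 and a fold enrichment of 4.44, its summit 207 bp downstream of the TSS in an intron. The ATPase gene Psmc3 had a peak only past its 3′ end, with FGF19. The ATPase genes Psmc1, Psmc2, Psmc4 and Psmc5 and the ubiquitin-binding base subunit genes Psmd2 and Psmd4 had none within 5 kb.

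The lid held the peak with the highest pileup of all proteasome genes, at Psmd12, and this peak was nearly as high in one list as in the other. It covers chr11:107340593-107341086 with vehicle and chr11:107340557-107341052 with FGF19, and the summits lie 9 bp and 13 bp downstream of the TSS. The Psmd12 pileup was 59 with vehicle and 58 with FGF19, or 38.1 (interval 29.0 to 49.2) and 43.1 (32.8 to 55.8) per 10M filtered ChIP tags. In the vehicle list its fold enrichment was 7.79 over a local background of 6.7 and in the FGF19 list 4.98 over a local background of 10.8. Psmd7, the catalytically inactive partner of the lid's deubiquitinase, had a weak vehicle peak on chr8:110112107-110112571, 80 bp upstream of the TSS, with a pileup of 23 and a fold enrichment of 3.12. Psmd11, a lid subunit that contacts the core, had an FGF19 peak over its start on chr11:80242114-80242534 with a pileup of 21 and a fold enrichment of 3.52, and a separate region past its 3′ end. Psmd3, Psmd6, Psmd8, Psmd13 and Psmd14, the last of which encodes the deubiquitinase itself, had no peak in either list.

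Among the assembly factors, Psmg2 was covered in both lists, and Psmg1, Psmg4 and Psmd5 in the FGF19 list only. Psmg1 and Psmg2 encode the partners of a heterodimer that helps to build the alpha ring. At Psmg2 the pileup was 38 with vehicle and 41 with FGF19, and the fold enrichment was 4.5 and 5.48, the highest of the proteasome peaks with FGF19. The TSS of Cep76 also lies within 1 kb of the Psmg2 summits, so these peaks cannot be assigned to one of the neighbouring genes. The Psmg1 peak with FGF19, on chr16:96212337-96212632, had a pileup of 25 and a fold enrichment of 3.61. At Psmg4, which encodes another core chaperone, the FGF19 peak on chr13:34254817-34255090 had a pileup of 28 and a fold enrichment of 4.23. Psmd5 encodes a chaperone of the base ATPases, and its FGF19 peak on chr2:34726250-34726762 had a pileup of 23 and a fold enrichment of 4.41. Psmd9, another base chaperone gene, had a vehicle peak only past its end, and Psmd10 and Psmg3 had none.

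**Figure D3:**
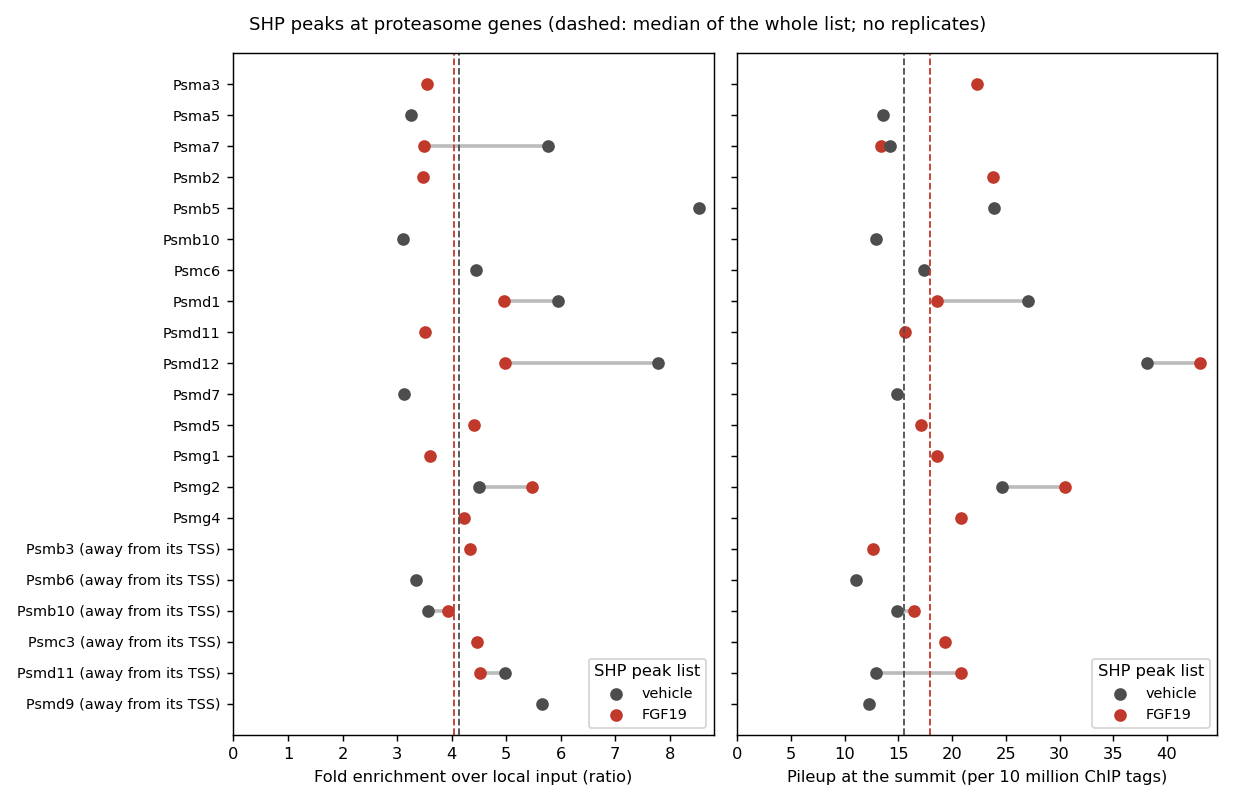
Fold enrichment (left) and pileup per 10M filtered ChIP tags (right) at each region near a proteasome gene, in the vehicle list (grey) and the FGF19 list (red). Lines join the peaks of a region found in both lists, and dashed lines are the medians of the whole lists, without replicates or error bars. Psmd12 has the highest pileup in both lists, and Psmb5 has the highest fold enrichment, 8.53 with vehicle.

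At the 6 regions common to both lists, neither measure moved one way throughout. The regions were those at Psma7, Psmd1, Psmd12 and Psmg2, the one upstream of Psmb10 and the one downstream of Psmd11. Fold enrichment was higher with FGF19 at 2 regions (Psmg2 and Psmb10) and lower at 4, with a median log2 ratio of FGF19 to vehicle of -0.20. After scaling to 10M filtered tags, pileup was higher with FGF19 at 4 regions and lower at 2, with a median log2 ratio of 0.16. The largest differences in scaled pileup were at the region downstream of Psmd11 (12.9 with vehicle, 20.8 with FGF19, log2 ratio 0.69) and at Psmd1 (27.1 and 18.6, log2 ratio -0.55). The exact Poisson intervals of the scaled pileups overlapped at all 6 regions, for example 19.6 to 36.7 with vehicle and 12.0 to 27.5 with FGF19 at Psmd1. The log2 ratio of fold enrichment was most negative at Psma7 (-0.72) and Psmd12 (-0.64), and was 0.28 at Psmg2.

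Of the 13 vehicle peaks near proteasome genes, 6 overlapped an FGF19 peak by at least 1 bp (46.2%, interval 23.2 to 70.9), against 45.5% of all vehicle peaks. Of the 14 FGF19 peaks, 6 overlapped a vehicle peak (42.9%, 21.4 to 67.4), against 21.8% of all FGF19 peaks. The interval of the FGF19 share starts just below the share of the whole list. No peak lay within 5 kb of more than one proteasome gene.

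Most of these peaks sat on promoters, close to the TSS. The 27 peaks formed 21 separate regions, of which 15 lay within 1 kb of a TSS of the proteasome gene, 5 at the TSS of a neighbouring gene and 1 at no coding TSS within 1 kb. With vehicle, 9 of 13 peaks were at the gene's own TSS (69.2%, 42.4 to 87.3), and with FGF19, 10 of 14 were (71.4%, 45.4 to 88.3). Some coding TSS, of whichever gene, lay within 1 kb of 71.4% of the whole vehicle list and 80.0% of the whole FGF19 list. By this wider rule, all 14 FGF19 peaks near proteasome genes had one (interval 78.5 to 100). So did all of the 13 vehicle peaks but 1. The summits of the promoter peaks ran from 170 bp upstream to 373 bp downstream of the nearest TSS with vehicle (median 55 bp downstream). With FGF19 they ran from 93 bp upstream to 338 bp downstream (median 36 bp downstream). The summit lay downstream of the TSS at 6 of 9 vehicle and 9 of 10 FGF19 promoter peaks.

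**Figure D4:**
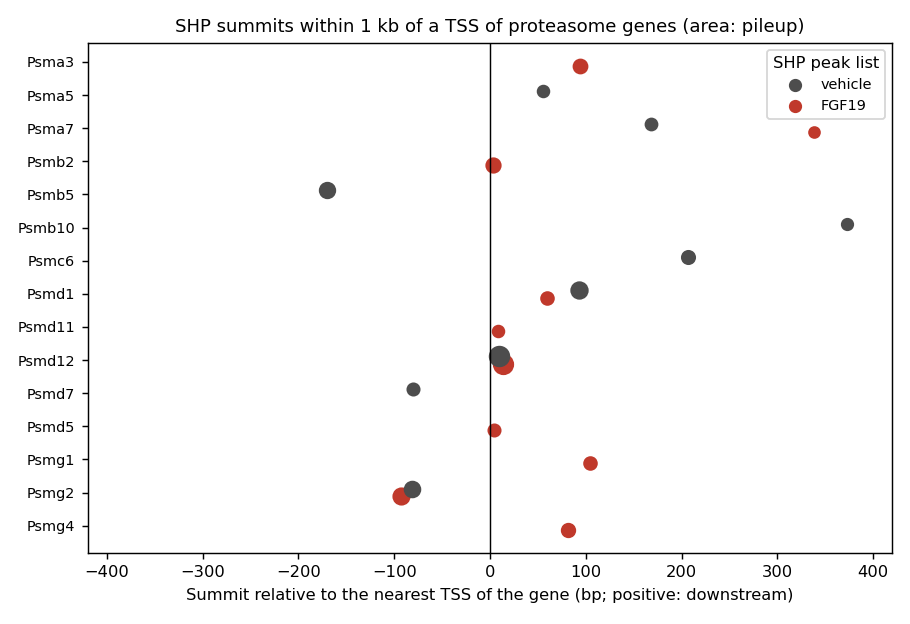
Signed distance in bp from the summit to the nearest TSS of the proteasome gene, for the promoter peaks of the vehicle and FGF19 lists. The area of a point is its pileup, and points to the right of 0 are downstream. All lie within 373 bp of the TSS, and Psmb5 is the farthest upstream, at 170 bp.

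The remaining regions belonged by position to other genes. The region upstream of Psmb10, common to both lists, lies over the start of Lcat, which encodes lecithin-cholesterol acyltransferase of plasma lipoproteins. Its summits are 32 bp (vehicle) and 85 bp (FGF19) downstream of the Lcat TSS, with pileups of 23 and 22 and fold enrichments of 3.56 and 3.94. The region downstream of Psmd11, also in both lists, lies at Cdk5r1, which encodes an activator of the kinase Cdk5. The vehicle peak there had a fold enrichment of 4.97, and the FGF19 peak 4.52. With vehicle only, the peak beyond the end of Psmd9 lay at the start of Wdr66 (fold enrichment 5.66). With FGF19 only, the peak upstream of Psmb3 lay at the start of the Polycomb gene Pcgf2 (4.34), and the peak beyond Psmc3 at the start of the zinc transporter gene Slc39a13 (4.47). The vehicle peak upstream of Psmb6 (fold enrichment 3.35) was the only one away from coding starts, 1147 bp past the TSS of Gltpd2. The peaks nearest to the 5 kb limit were on the inside those of Psmb10 (4795 and 4872 bp from the gene body) and Psmb6 (4852 bp). The nearest on the outside was the Psmb5 peak as measured from Psmb11 (7035 bp), followed by peaks near Psmc3ip (8288 bp), Psmd2 (8809 bp) and Psmc5 (9803 bp).

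Peaks near proteasome genes were of about the typical strength of their lists. The median fold enrichment was 4.5 over the 13 vehicle peaks (order-statistic interval 3.26 to 5.95) against 4.14 over the whole list. Over the 14 FGF19 peaks it was 4.29 (3.52 to 4.96) against 4.05. The fold enrichment was above the median of the whole list at 8 of 13 and 8 of 14 peaks. The median pileup was 23 with vehicle and 25.5 with FGF19, against 24 in both whole lists. The peaks in the vehicle list only had a median fold enrichment of 3.35, with Psmb5 as their maximum of 8.53. Among them, the peaks of Psma5, Psmb6, Psmb10 and Psmd7 had a fold enrichment under 3.4. The median GC content within 100 bp of the summit was 59.2% at the 9 vehicle promoter peaks and 68.7% at the 10 FGF19 promoter peaks. It was 66.7% and 69.7% over all peaks with a coding TSS within 1 kb. Among the proteasome peaks Psmb5 had the lowest, 44.8%.

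Consensus sequences were counted within 100 bp of the summit in the 21 regions, using the summit with the higher fold enrichment where a region was in both lists. The YY1/SRE core AANATGGC was present in 3 regions (14.3%), at Psmb5, at the start of Psmd11 and at Psmd7, and in 4 when either summit was used, with Psma7 added. It was present in 9.75% of all vehicle peaks, 7.54% of all FGF19 peaks and 5.72% of the starts of all protein-coding genes in windows of the same length. The antioxidant response core TGACNNNGC, the sequence bound by the proteasome gene activator Nfe2l1 and its relative Nfe2l2 with a small Maf partner, was present in 5 regions (23.8%), of which 4 were at the proteasome gene's own TSS (Psma3, Psmb2, Psmc6 and Psmd7) and 1 was the region beyond Psmc3, at the start of Slc39a13. It was present in 12.1% of all vehicle peaks, 11.9% of all FGF19 peaks and 9.79% of gene starts. SP1 CCCCGCCCC occurred in 1 region (4.76%), upstream of Psmb3 at the start of Pcgf2, and in 2 when either summit was used, with the region downstream of Psmd11 added, against 13.1% of vehicle peaks, 14.8% of FGF19 peaks and 11.9% of gene starts. NF-Y ATTGGC occurred in 1 region, at Psmb2, against 11.2%, 11.1% and 12.0%. ETS CCGGAAGT occurred in 1 region, at Psmd12, against 3.32%, 3.39% and 4.21%. NRF1 GCGCATGCG occurred in 0 of 21 regions, against 1.86%, 2.28% and 1.7%. A match says only that these letters are in the window.

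Other genes of the ubiquitin-proteasome pathway had most of their peaks in the FGF19 list. A list of 33 regulators, ubiquitin genes and proteasome partners had 32 genes in the annotation. It was chosen with earlier results of these data known, so its shares are description only. Of its genes, 2 also belong to the conjugating and deubiquitinating enzymes compared below, and 1 to the ribosomal proteins. Of the 32 genes, 2 had a vehicle peak within 5 kb (6.25%, 1.73 to 20.1) and 14 an FGF19 peak (43.8%, 28.2 to 60.7), and none had both. Of all protein-coding genes, 7.95% had a vehicle peak, 16.4% an FGF19 peak and 4.33% both, so the vehicle share is near that of all genes. With vehicle the genes were Rps27a, which encodes a ubiquitin-ribosomal fusion protein (pileup 44, fold enrichment 5.09), and the ubiquitin ligase gene Ube3a (20 and 3.33). With FGF19, both transcription factor genes known for driving proteasome genes had a promoter peak. At Nfe2l1 the summit was 65 bp downstream of the TSS, with a pileup of 28 and a fold enrichment of 3.51. At Nfe2l2 it was 6 bp upstream, with a pileup of 26 and a fold enrichment of 5.68. The median fold enrichment of the whole FGF19 list was 4.05, so Nfe2l1 lay below it and Nfe2l2 above. The polyubiquitin gene Ubb had a promoter peak of pileup 36 and fold enrichment 4.64. Pomp, which encodes the maturation factor of the core, had a weak promoter peak (25 and 2.53). Zfand5, Nploc4, Uchl5, Rad23b, Ube3c and Txnl1 also had FGF19 promoter peaks, with fold enrichments from 3.31 to 6.33. Ubqln4 and Mafg had an FGF19 peak within 5 kb and away from their TSS.

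Side by side with 2 larger groups, the proteasome genes had the highest share with vehicle and not with FGF19. Genes of ubiquitin-conjugating and deubiquitinating enzymes were covered at 14 of 93 with vehicle (15.1%, 9.18 to 23.7) and at 34 of 93 with FGF19 (36.6%, 27.5 to 46.7). Genes of cytosolic ribosomal proteins were covered at 18 of 134 with vehicle (13.4%, 8.67 to 20.2) and at 19 of 134 with FGF19 (14.2%, 9.27 to 21.1). Of all protein-coding genes, 7.95% were covered with vehicle and 16.4% with FGF19, and the ribosomal share with FGF19 is near the latter. In both lists were 1 ribosomal protein gene (0.746%), 6 of the 50 proteasome genes (12.0%) and 4.33% of all genes. With vehicle only, the share was 12.7% of the ribosomal protein genes and 12.0% of the proteasome genes. It was 7.53% of the conjugating and deubiquitinating enzyme genes and 3.63% of all genes. A raised vehicle-only share is thus not particular to the proteasome genes. The intervals of the groups overlap with vehicle, and no difference between gene groups was tested. Gene length bears on a rule that adds up the gene body and its flanks. The median gene body was 11270.5 bp for the proteasome gene entries and 15420.5 bp for all protein-coding entries. The part of gene length in these shares was not tested.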

How the data were processed

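SHP ChIP and input libraries of pooled mouse liver, 1 of each per group, were sequenced. According to the submitters' processing notes, reads were aligned with Bowtie 1.0.0 to mm9 and peaks were called with MACS2 2.0.10.20130501 against input, at a q-value cutoff of 0.05. The deposited peak lists give, for each peak, a pileup (a signal, the number of extended tags at the summit), a fold enrichment (a ratio of pileup to local input background, 1 added to each, which was checked against the p-values), and −log10 p and q values, all as the authors' peak caller wrote them. Values of the lists are not scaled to each other. Pileup was therefore also divided by the filtered ChIP tags in the file header and given per 10M tags.

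Genes, transcription start sites and sequence came from the NCBIM37 (mm9) reference, whose chromosomes match the lists. Peaks within 5 kb of a gene body were assigned to the gene, and peaks of both lists were called common at an overlap of 1 bp. All proteasome genes with a peak are named, and genes of the pathway list that have one, except some that are not reported here. The groups of conjugating and deubiquitinating enzymes and of ribosomal proteins are given as counts. The members and lists were chosen with earlier results of these data known. Shares carry 95% Wilson intervals and pileups exact Poisson intervals, which cover counting error only. With 1 library per group no test was possible and no p-value is given. Liver identity cannot be checked against marker genes in a peak list. Intervals were computed with scipy 1.17.1, tables with pandas 2.3.3 and numpy 2.4.6 and plots with matplotlib 3.10.9 in Python 3.11.15, and the overlap, distance and motif functions passed 7 of 7 checks on simulated data. The alternatives included other flanks, nearest TSS, stricter q and fold cutoffs, a shortened FGF19 list, and motif windows of other widths. Counts were also taken on chromosomes 1 to 19 and X only, and without Psmc3ip and Psme2b-ps. Reads, input files and expression were not analysed here, and the sequence at Psmg2 is not printed.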

Additional observations from a re-analysis of the deposited data

How the results depend on the processing

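Of the values recomputed under alternatives, 55 stayed within 1.5 times the value reported and 10 moved. The 55 include settings that left every proteasome gene count unchanged, so this tally is no measure of stability. Those settings were chromosomes 1 to 19 and X only, the members without Psmc3ip and Psme2b-ps, and −log10 q of at least 2. With −log10 q of at least 3, the proteasome genes with a vehicle peak only went from 6 to 3. The share of all genes went from 3.63% to 3.09%. With a fold enrichment of at least 4, those with an FGF19 peak went from 13 to 8 and those with FGF19 only from 7 to 4. The shares of all genes went from 16.4% to 8.64% and from 12.1% to 6.87%. Within 50 bp of the summit, SP1 and NF-Y went from 1 region to 0 and the antioxidant core from 5 to 3. Within 150 bp, SP1 occurred in 3 regions, NF-Y in 2 and NRF1 in 1. With a match near either summit of a region in both lists, an alternative chosen after seeing the data, SP1 occurred in 2 regions. The number with a vehicle peak ranged from 8 to 15 over the alternatives. It was 8 at a fold enrichment of at least 4 (16.0%, against 4.29% of all genes). Within 10 kb it was 15 (30.0%, against 9.34%).

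No paired analysis was possible because each group is 1 pooled library, and for the same reason no library was left out. Signal below the q-value cutoff was not analysed here. The lists differ in length and input depth, and these cannot be told apart from the treatment.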

Other observations

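The same consensus sequences were counted around the annotated starts of the 48 proteasome genes, with or without a promoter peak. The YY1/SRE core occurred at 9 starts (18.8%, against 5.72% of all protein-coding gene starts), namely 3 of 15 with a promoter peak (20.0%) and 6 of 33 without one (18.2%). The starts without a peak were those of Psma2, Psma4, Psmb1, Psmb6, Psmc5 and Psmd8. ETS sequences occurred at 9 starts (18.8%, against 4.21%), at 1 of 15 with a promoter peak and 8 of 33 without. NF-Y sequences occurred at 9 starts (18.8%, against 12.0%), at 1 of 15 with a peak (Psma3) and 8 of 33 without, including Psmc2, Psmc3, Psmd4 and Psmd14. The antioxidant core occurred at 8 starts (16.7%, against 9.79%), at 2 of 15 with a peak and 6 of 33 without. SP1 sequences occurred at 6 starts (12.5%, against 11.9%), at 2 of 15 with a peak and 4 of 33 without. The NRF1 sequence occurred at 1 start (2.08%, against 1.7%), that of Psmg1, which had a promoter peak. The SP1 and NRF1 shares are near those of all gene starts. These are descriptions of the sequence, and no difference between the starts with and without a peak was tested.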
